A study of Mus musculus with 9 samples.

Results

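The genes described here are the 9 enzymes of prostaglandin synthesis and breakdown that the arrays name as Ptgs1, Ptgs2, Ptgds, Ptges, Ptges2, Ptges3, Ptgis, Tbxas1 and Hpgd. They were chosen by symbol, by taking every probe that is not a control and whose gene name equals 1 of the 9 symbols, and all 9 genes had at least 1 probe. This gave 14 probes on 23 spots, out of 39429 probes on the array. RNA came from the choroid (CH), the retinal pigment epithelium (RPE) and the photoreceptors (PR) of female C57BL/6 mice, aged 6 months (give or take 2 weeks) according to the labels, with no treatment named. The study's methods give a slightly younger age, name a J substrain and state that the rd8 mutation was absent. Each tissue had 3 samples, each laser dissected from a whole eye, and each was hybridised on a dual-colour array. Tissue RNA carried Cy5 on all 9 arrays and RNA pooled from RPE and choroid served as the common reference in Cy3, so dyes were never swapped. In the study's methods the PR came from thicker sections than the RPE and the CH, and the choroid was dissected after the RPE had been removed.

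Prostaglandins are made from arachidonic acid, which phospholipases A2 free from membranes. The cyclooxygenases Ptgs1 and Ptgs2 turn it into prostaglandin H, which terminal synthases convert to prostaglandin D, E, prostacyclin or thromboxane. The products act on G protein-coupled receptors, are carried across membranes by transporters and are inactivated by enzymes that begin with Hpgd. In the eye these lipids act on blood vessels, on inflammation and on the drainage of fluid.

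Ptgs1 is known as the constitutive cyclooxygenase and Ptgs2 as the inducible one. To show how their starts differ in sequence, the 250 bases before and 30 bases after the annotated start of each are printed from RefSeq (assembly GRCm38.p6, plus strand for both), where 8 of the 9 genes were found and Ptgis was not. Capitals mark any of 4 motifs searched on both strands, which are the TATA box written as TATAAA, the E-box written as CACGTG, the core of the cyclic AMP response element written as ACGTCA, and the GC box written as GGGCGG.
Ptgs1, chr2:36230176-36230455: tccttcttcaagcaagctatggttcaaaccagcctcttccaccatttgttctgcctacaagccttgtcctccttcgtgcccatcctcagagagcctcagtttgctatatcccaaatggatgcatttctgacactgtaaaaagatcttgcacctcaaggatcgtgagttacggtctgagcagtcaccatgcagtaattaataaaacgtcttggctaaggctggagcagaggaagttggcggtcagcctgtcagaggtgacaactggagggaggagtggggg
Ptgs2, chr1:150099781-150100060: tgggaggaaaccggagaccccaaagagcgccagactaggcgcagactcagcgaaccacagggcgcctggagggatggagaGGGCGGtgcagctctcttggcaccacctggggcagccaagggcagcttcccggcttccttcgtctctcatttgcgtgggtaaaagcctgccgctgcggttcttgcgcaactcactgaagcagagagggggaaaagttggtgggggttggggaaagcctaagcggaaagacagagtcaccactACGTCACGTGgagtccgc
The Ptgs2 window holds a GC box before the annotated start. After that start it holds the cyclic AMP element core and the E-box, which overlap each other. The Ptgs1 window holds none of the 4 motifs. These positions depend on the annotated start, and bases beyond the windows were not searched. Among all 32851 windows of the same 280 bases, 34.7% hold the GC box, 7.3% the cyclic AMP element core, 6.8% the E-box and 13.1% the TATA box. Of the 8 windows found, the TATA box lies in those of Tbxas1 and Hpgd, the E-box also in that of Ptges2, and the GC box also in those of Ptges, Ptges3 and Hpgd. These matches describe letters and were not tested for binding.

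Values are log2(Cy5/Cy3) after background correction and loess normalization, so that 0 means a signal equal to the reference and a difference of 1 between tissues means a doubled ratio. Differences between tissues were tested with limma over all 9 arrays and all 39429 probes. A probe was called when its fold change (FC) was above 2.5 and its Benjamini-Hochberg (B-H) adjusted p-value under 0.01. Where a gene has several probes, the brightest in Cy5 is the reported one. The 3 comparisons share arrays, so their results are not independent of one another, and 3 arrays per tissue limit the precision of each value. In these bulk samples fewer cells of a type and less RNA per cell cannot be told apart. Median Cy5 signals were between 617 and 1534 per array, and 62.1% to 91.7% of probes were well above background, with the highest share on RPE 2. The arrays lay on 3 slides, which the headers also give as scan sessions. CH 1, CH 3, RPE 1 and RPE 3 lay on slide 1, CH 2, RPE 2 and PR 2 on slide 2, and PR 1 and PR 3 on slide 3.

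Most of these enzymes were lower in the PR than in both other tissues, Ptges depended on the probe, and RPE and CH differed less. At the reported probes, 6 of 9 genes were called higher in CH than in PR and the same 6 higher in RPE than in PR. They were Ptgs1, Ptgs2, Ptgds, Ptgis, Tbxas1 and Hpgd. The calls of Ptgds rest on ratios whose Cy5 signal was saturated on all CH and RPE arrays. With the Cy5 channel alone Ptgds was not called against the PR. Ptges was called higher in the PR at its reported probe in both comparisons, while Ptges2 and Ptges3 were not called in any. Over all 14 probes, 7 were called higher in RPE than in PR, against 10.3% of all probes, and 1 was called higher in the PR, against 5.17%. For CH against PR, 7 were called higher in the CH and 1 higher in the PR, against 12.0% and 6.33% of all probes. Between RPE and CH only the probe of Ptgs2 was called, higher in the CH, where 1.55% of all probes were, and 0 were called higher in the RPE, against 0.185%. The median log2 difference over the 9 reported probes was 1.92 for RPE against PR, 2.90 for CH against PR and -0.24 for RPE against CH, whereas over all probes it was -0.01, -0.05 and 0.04. The arrays of the groups did not overlap at 10 of the 14 probes for RPE against PR, 11 for CH against PR and 9 for RPE against CH, where 58.6%, 62.1% and 38.5% of all probes did not overlap.

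**Figure D1:**
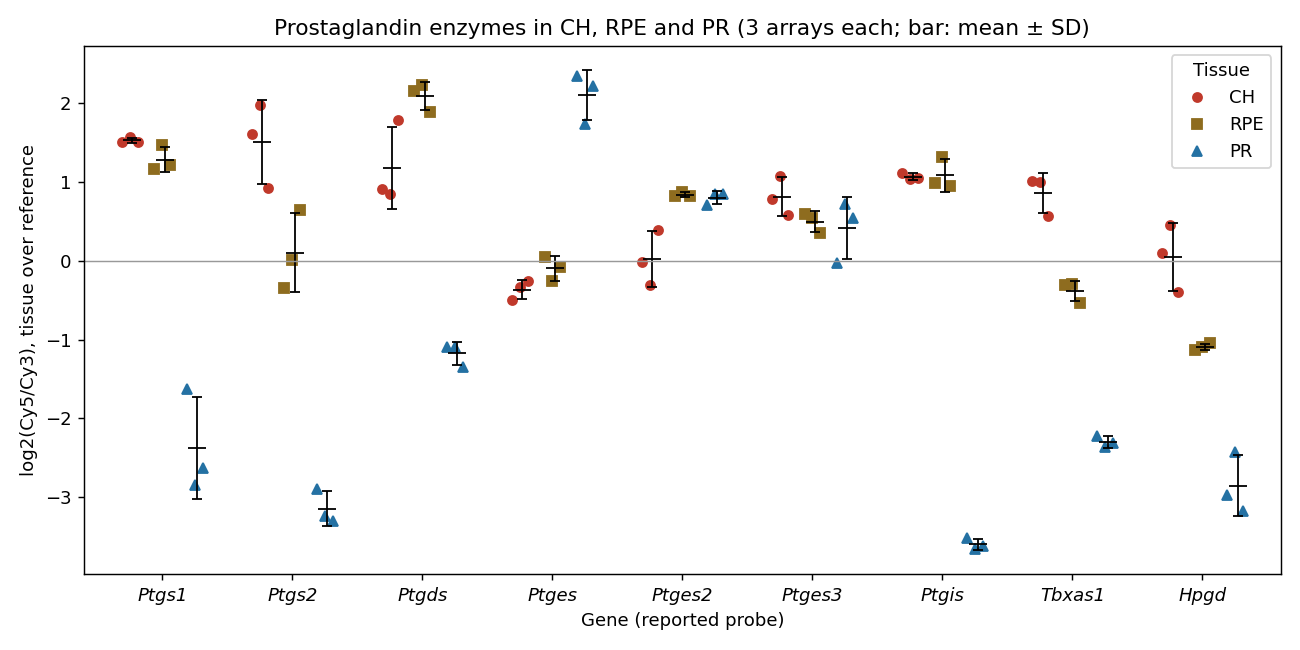
log2(Cy5/Cy3) of the 9 genes at their reported probes on each array, with circles for the CH, squares for the RPE, triangles for the PR and bars for the mean ± SD of 3 arrays. The PR arrays lie below all CH and RPE arrays for Ptgs1, Ptgs2, Ptgds, Ptgis, Tbxas1 and Hpgd, and above them for Ptges. For Ptgds, Cy5 was saturated on all CH and RPE arrays.

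The cyclooxygenases come first in the pathway. Ptgs1 (NM_008969, probe at chr2:36105892-36105951 on mm9) had log2 ratios of 1.51, 1.57 and 1.50 in CH 1 to 3, 1.17, 1.47 and 1.21 in RPE 1 to 3, and -1.63, -2.85 and -2.63 in PR 1 to 3. All PR arrays were below the reference and below every other array, with PR 1 the highest of them. The fitted log2 difference was 3.90 for CH against PR (SE 0.26, FC 14.9, adjusted p-value = 8.42e-07, limma) and 3.65 for RPE against PR (SE 0.26, FC 12.6, adjusted p-value = 1.68e-06, limma). RPE arrays lay just under the CH arrays without overlap, but the difference of -0.24 (95% confidence interval -0.83 to 0.34) did not pass the test (adjusted p-value = 0.576, limma).

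Ptgs2 (NM_011198, probe at chr1:151954744-151954803) was printed on 10 spots, of which 0 to 3 were marked as outliers on an array and dropped. Its log2 ratios were 1.61, 1.97 and 0.92 in the CH, -0.34, 0.01 and 0.64 in the RPE, and -2.89, -3.24 and -3.30 in the PR. The 3 tissues did not overlap, with the CH highest and the PR lowest. In the PR the probe was not well above background on any array, so only a lower bound can be given there, from the normalized Cy5 channel. The signal was at least 11.2-fold higher in CH than in PR (adjusted p-value = 5.90e-07, limma) and at least 4.41-fold higher in RPE than in PR (adjusted p-value = 9.31e-06, limma). The RPE was lower than the CH, with a log2 difference of -1.40 (95% confidence interval -2.06 to -0.74, FC 2.64, adjusted p-value = 0.00836, limma), just past the threshold. This call was lost in 14 of 25 alternatives, with adjusted p-values from 0.00248 to 0.166, although the value stayed negative in all of them. One of these was slide 1 alone, where the difference was -1.12 and where 2 arrays against 2 gave 0 calls among all 39417 probes tested. Between the single RPE and CH arrays of slide 2 it was -1.96. With slide as a block it was -1.40 (adjusted p-value = 0.0138, limma), with the Cy5 channel alone -1.33 (adjusted p-value = 0.0393, limma) and with the series table -1.37 (adjusted p-value = 0.0455, limma). Leaving out any 1 of CH 1, CH 2, RPE 1, RPE 2, PR 1, PR 2 or PR 3 also took the call away, with adjusted p-values from 0.0118 to 0.0344.

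**Figure D2:**
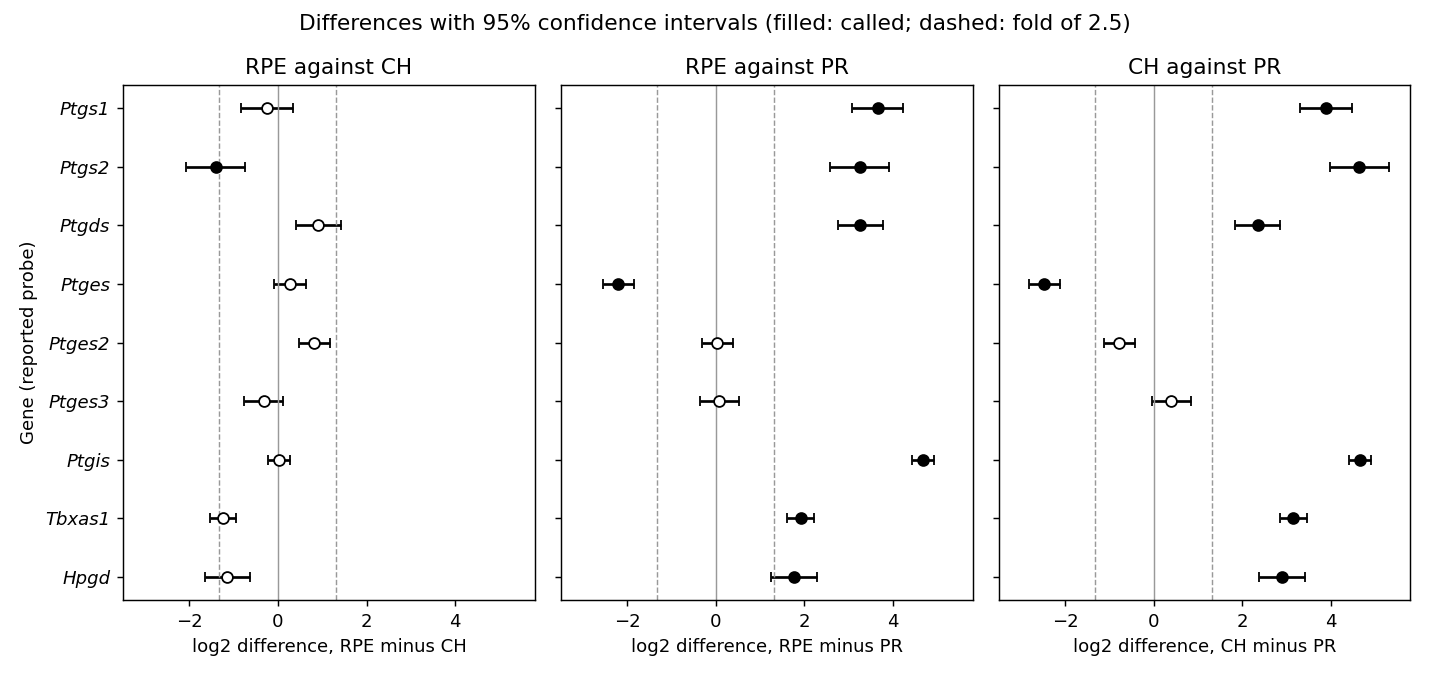
Fitted log2 difference of each gene at its reported probe with its 95% confidence interval, for RPE against CH, RPE against PR and CH against PR, with filled points for called genes and dashed lines at a fold of 2.5. The intervals for Ptgis run from 4.43 to 4.93 and from 4.41 to 4.91 in the comparisons with the PR, and only Ptgs2 is filled for RPE against CH; the plotted values of Ptgds and of Ptgs2 in the PR come from saturated or dim spots.

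Among the terminal synthases, Ptgds, the lipocalin-type prostaglandin D synthase, is a secreted protein that also carries retinoids and other lipids. At its probe (NM_008963, chr2:25322232-25322291, minus strand) the log2 ratios were 0.91, 0.84 and 1.78 in the CH, 2.15, 2.23 and 1.88 in the RPE, and -1.09, -1.09 and -1.34 in the PR. On these ratios the RPE was highest and the PR lowest, without overlap. However, the Cy5 signal was saturated on all 3 CH and all 3 RPE arrays, so no fold is given between them (log2 difference 0.91, adjusted p-value = 0.0177, limma). Against the PR the ratios were called, for the RPE (adjusted p-value = 1.36e-06, limma) and for the CH (adjusted p-value = 1.12e-05, limma). The size of the difference depended on how Cy5 was normalized. With loess and then Aquantile its signal was 1.45-fold higher in RPE than in PR and 1.39-fold higher in CH than in PR. With the Cy5 channel alone the log2 difference was smaller, 0.37 for RPE against PR (adjusted p-value = 0.0615, limma) and 0.36 for CH against PR (adjusted p-value = 0.0642, limma), and neither was called. No lower bound is therefore given for Ptgds against the PR.

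The reference channel of the Ptgds probe moved with the tissue although the same reference RNA was on every array. Its Cy3 signal was 46231 to 92316 on the CH arrays, 42299 to 51204 on the RPE arrays and 343069 to 428668 on the PR arrays. On the log2 scale, after each array was centred on its median, the Cy3 signal was lower by 3.09 on the RPE than on the PR arrays (a difference of -3.09), and 99.97% of all probes had a smaller absolute difference. At the reported probes of Ptgs1, Ptgs2, Ptges2, Ptges3, Ptgis, Tbxas1 and Hpgd this Cy3 difference was between -0.16 and -0.05. At probe 1 of Ptges it went the other way, by 0.64, with Cy3 signals of 59558 to 63055 on the RPE arrays and 30625 to 46933 on the PR arrays. The part of the reference channel in the Ptgds and Ptges ratios was not tested, but with Cy5 alone the Ptges differences were -1.44 for RPE against PR (adjusted p-value = 3.16e-04, limma) and -1.62 for CH against PR (adjusted p-value = 1.29e-04, limma) and were still called.

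**Figure D3:**
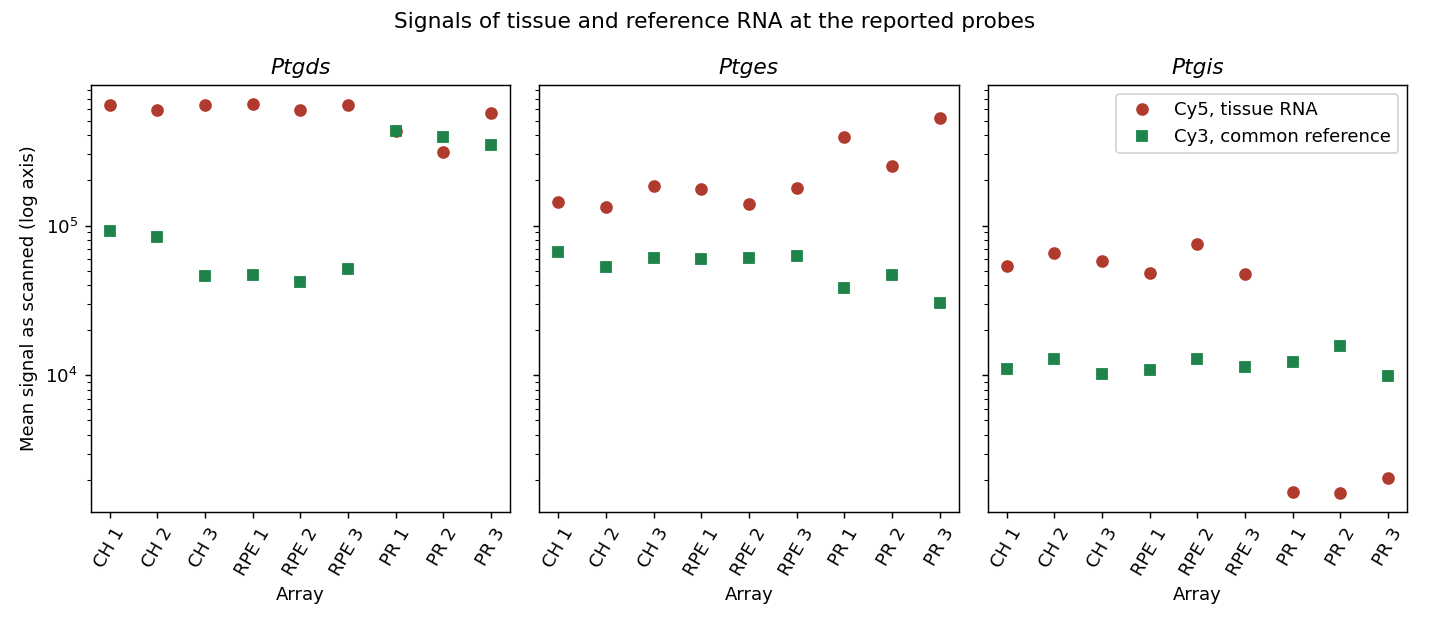
Mean signals as scanned (log axis) of tissue RNA in Cy5 and reference RNA in Cy3 on each of the 9 arrays, at the reported probes of Ptgds, Ptges and Ptgis. For Ptgds the Cy3 points rise from at most 92316 on the CH and RPE arrays to at least 343069 on the PR arrays, whereas for Ptgis it is the Cy5 points that fall on the PR arrays, from at least 47220 to at most 2071.

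Ptges, the microsomal prostaglandin E synthase known to be induced together with Ptgs2, had probes that disagreed. The last 30 bases of both 60-base probes are shown, since the result turns on which of them is read, with the polyadenylation hexamer ATTAAA in capitals.
Ptges probe 1, chr2:30744995-30745054, minus strand: agtcagccccaATTAAAtgctttcctttat
Ptges probe 2, chr2:30748214-30748273, minus strand: gttgtcctcacaggccgtgtggtacacacc
Probe 1 is the brighter and reported one, lies 3219 bases downstream of probe 2 on the minus strand, and ends 13 bases after its hexamer. Either ATTAAA, or the hexamer AATAAA in its more frequent form, was found, on the printed strand only, in 5 of the 14 probes (those of Ptgds and Ptgis, and 1 each of Ptges, Ptges3 and Hpgd), and in 16.7% of all 39429 probes. The gene model at these positions on mm9 was not used here, so it is not said which transcript or exon either probe reads.

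At probe 1 the log2 ratios were -0.50, -0.34 and -0.26 in the CH, 0.05, -0.26 and -0.08 in the RPE, and 2.34, 1.73 and 2.22 in the PR. All PR arrays were above all others. The difference was -2.20 for RPE against PR (SE 0.16, FC 4.58, adjusted p-value = 1.88e-06, limma) and -2.46 for CH against PR (SE 0.16, FC 5.51, adjusted p-value = 6.65e-07, limma). At probe 2 the log2 ratios were 0.31, -0.07 and -0.004 in the CH, 0.67, 0.96 and 0.77 in the RPE, and -0.75, -0.84 and -0.84 in the PR. Here the order was turned round, with the RPE highest and all PR arrays lowest. The RPE was higher than the PR by a log2 difference of 1.61 (SE 0.12, FC 3.05, adjusted p-value = 2.42e-06, limma) and was called. The RPE was also above the CH by 0.72 (adjusted p-value = 0.00271, limma) and the CH above the PR by 0.89 (adjusted p-value = 1.42e-04, limma), both under the fold threshold. With the mean over both probes the gene was not called, at -0.29 for RPE against PR (adjusted p-value = 0.0333, limma) and -0.79 for CH against PR (adjusted p-value = 7.76e-05, limma). No direction between tissues is therefore given for Ptges as a gene.

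**Figure D4:**
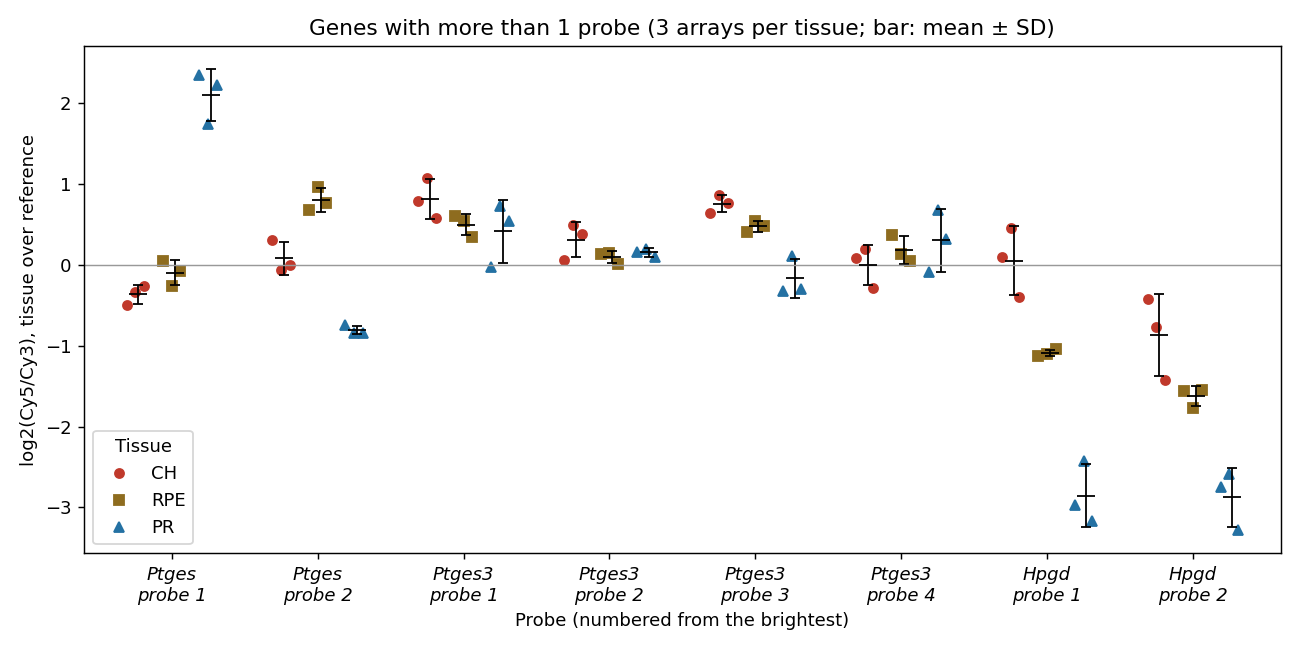
log2(Cy5/Cy3) on each array at every probe of the 3 genes with more than 1 probe, numbered from the brightest, with bars for the mean ± SD of 3 arrays per tissue. The PR triangles lie above the other tissues at Ptges probe 1 (1.73 to 2.34) and below them at Ptges probe 2 (-0.84 to -0.75), whereas both Hpgd probes keep the order CH, RPE, PR.

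The other prostaglandin E synthases varied little. Ptges2, a membrane-associated enzyme (NM_133783, chr2:32257968-32258027), had log2 ratios of -0.01, -0.31 and 0.39 in the CH, 0.82, 0.87 and 0.82 in the RPE, and 0.70, 0.85 and 0.84 in the PR. The CH was below both other tissues without overlap, and RPE and PR overlapped. The RPE exceeded the CH by 0.82 (95% confidence interval 0.47 to 1.16, FC 1.76, adjusted p-value = 0.00509, limma), and the CH was under the PR (-0.78, FC 1.71, adjusted p-value = 0.00178, limma), both short of the fold threshold. Between RPE and PR the difference was 0.04 (95% confidence interval -0.31 to 0.39).

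Ptges3, the cytosolic enzyme also known as the Hsp90 cochaperone p23 (NM_019766), had 4 probes between positions 127513224 and 127514310 of chromosome 10, and none was called in any comparison. At the reported probe the log2 ratios were 0.78, 1.07 and 0.58 in the CH, 0.60, 0.54 and 0.34 in the RPE, and -0.03, 0.72 and 0.54 in the PR, and the tissues overlapped. Its intervals were -0.75 to 0.12 for RPE against CH, -0.35 to 0.52 for RPE against PR and -0.04 to 0.84 for CH against PR. The probe nearest the downstream end differed most, with the CH above the PR by 0.92 (FC 1.90, adjusted p-value = 1.46e-04, limma) and the RPE above the PR by 0.65 (FC 1.56, adjusted p-value = 0.00182, limma). Whether these probes also bind near-identical copies of the gene was not examined.

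Ptgis, the prostacyclin synthase of blood vessel walls, was far lower in the PR than in both other tissues. At its probe (NM_008968, chr2:167028696-167028755, minus strand) the log2 ratios were 1.11, 1.03 and 1.05 in the CH, 0.98, 1.32 and 0.95 in the RPE, and -3.51, -3.66 and -3.62 in the PR. The CH and the RPE overlapped, and the PR lay far below both with little spread. The RPE exceeded the PR by 4.68 (SE 0.11, FC 25.6, adjusted p-value = 4.73e-09, limma) and the CH exceeded it by 4.66 (SE 0.11, FC 25.3, adjusted p-value = 2.48e-09, limma). RPE and CH differed by 0.02, with a 95% confidence interval of -0.23 to 0.27, and the sign of this difference turned in 6 alternatives.

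Tbxas1, the thromboxane A synthase of platelets and macrophages (NM_011539, chr6:39034356-39034415), had log2 ratios of 1.01, 1.00 and 0.57 in the CH, -0.31, -0.30 and -0.53 in the RPE, and -2.22, -2.37 and -2.31 in the PR. The 3 tissues were apart, in the order CH, RPE, PR. The CH exceeded the PR by 3.16 (SE 0.13, FC 8.92, adjusted p-value = 3.66e-08, limma) and the RPE exceeded it by 1.92 (SE 0.13, FC 3.77, adjusted p-value = 1.37e-06, limma). The RPE was below the CH, with a log2 difference of -1.24 (95% confidence interval -1.54 to -0.94, FC 2.37, adjusted p-value = 3.37e-04, limma), a little under the fold threshold, and the difference was called in 4 of 25 alternatives, among them a fold threshold of 2 and the fit without CH 3, the lowest CH array for this gene.

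Hpgd, the 15-hydroxyprostaglandin dehydrogenase that starts the breakdown of prostaglandins (NM_008278, reported probe at chr8:58799399-58799458), had log2 ratios of 0.09, 0.45 and -0.40 in the CH, -1.13, -1.10 and -1.05 in the RPE, and -2.97, -2.42 and -3.17 in the PR. The order was again CH, RPE, PR without overlap. The CH exceeded the PR by 2.90 (SE 0.23, FC 7.47, adjusted p-value = 2.72e-06, limma) and the RPE exceeded it by 1.76 (SE 0.23, FC 3.39, adjusted p-value = 1.17e-04, limma). The RPE was below the CH, with a log2 difference of -1.14 (95% confidence interval -1.66 to -0.62, FC 2.20, adjusted p-value = 0.00665, limma), under the fold threshold. The probe that starts 458 bases upstream (chr8:58798941-58799000) gave the same order of means, -0.87, -1.62 and -2.87, with the CH called above the PR (2.00, adjusted p-value = 7.36e-05, limma) and the RPE not called (1.25 above the PR, adjusted p-value = 0.00203, limma). On PR 3 this second probe was not well above background.

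Slide 2 held 1 array of each tissue and so gives the differences from the PR within a slide, with no test. On it the log2 difference of RPE and of CH from the PR was 4.31 and 4.41 for Ptgs1, -2.00 and -2.07 for Ptges probe 1, 4.97 and 4.69 for Ptgis, 2.06 and 3.37 for Tbxas1, and 1.32 and 2.88 for Hpgd. These 5 probes had the direction of the fit over the 9 arrays. The ratios of Ptgs2 (3.25 and 5.21) and Ptgds (3.32 and 1.94) had it too, but Ptgs2 was dim on PR 2 and Ptgds saturated on CH 2 and RPE 2, so their sizes are not measured. With slide as a block, the 8 member probes called for RPE against PR and the 8 called for CH against PR were all called again. For RPE against CH, Tbxas1 differed by -1.21 on slide 1 and -1.30 on slide 2, and Hpgd by -0.93 and -1.55.

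Cell types that can carry these enzymes were read from lists of marker genes, by the mean log2 ratio of each list on each array. Over all probes, 1.55% were called higher in CH than in RPE and 0.185% higher in the RPE, so 0 calls in a short list is near this share. Against the PR, 10.3% were called higher in the RPE and 12.0% in the CH, and 5.17% and 6.33% higher in the PR. The lists followed the labels, with 5 of 6 RPE markers called higher in the RPE than in both other tissues and all 6 rod and 5 cone markers called higher in the PR than in both. Best1, the other RPE marker, was well above background on 1 of 3 RPE arrays, and its mean was highest in the PR (0.31, against -0.06 in the RPE). The mean of the RPE markers was 1.78 to 2.22 in the RPE, -2.71 to -2.61 in the PR and 0.33 to 1.05 in the CH, with CH 3 the highest of the CH arrays. Cy5 was saturated on all 3 RPE arrays for Rpe65, Rdh5 and Ttr, and on 1, 2 and 3 CH arrays respectively. The sizes of their differences are therefore not measured, and the call of Ttr between RPE and CH rests on ratios saturated in both. Gnat1 and Sag of the rod list were saturated on all 3 PR arrays. On CH 1, 2 and 3 the ratios were 0.23, 0.086 and 1.12 for Rlbp1 and 0.59, 0.45 and 1.64 for Lrat, both genes of the visual cycle. CH 3 was also the CH array with the highest ratio of Ptgds and the lowest of Ptgs2, Tbxas1 and Hpgd, and whether the RPE signal there had a part in these was not tested. For Ptgds, Cy5 was saturated on every CH array, and the Cy3 signal was 46231 on CH 3 against 92316 on CH 1 and 84320 on CH 2. Endothelial markers were at 1.34 to 1.89 in the CH, 1.43 to 1.57 in the RPE and -1.89 to -1.76 in the PR, and 0 of 6 were called between RPE and CH and 5 of 6 against the PR in each comparison. Ptgis and Ptgs1 likewise had CH and RPE close together and the PR lower, as did the means of the platelet and red blood cell lists, by less. Red blood cell markers were at -1.68 to -0.86 in the CH, -1.38 to -0.57 in the RPE and -2.02 to -2.0 in the PR. Against the PR only 1 of 3 red blood cell markers and 2 of 5 platelet markers were called in each comparison. Macrophage markers were at -0.15 to 0.38 in the CH, -0.96 to -0.83 in the RPE and -3.40 to -3.34 in the PR, with 3 of 6 called higher in CH than in RPE, 4 of 6 higher in RPE than in PR and 6 of 6 higher in CH than in PR. Tbxas1, Hpgd and Ptgs2 had the same order of tissues, as did the means of the fibroblast, smooth muscle and pericyte, mast cell and pigment cell lists. Single genes went the other way between RPE and CH. The means in CH and RPE were 0.59 and 1.12 for Csf1r of the macrophage list and -1.77 and -1.09 for Tyr of the pigment cell list. For Tpsb2 of the mast cell list they were -0.16 and 0.16, with the PR at -0.15.

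Fibroblast markers, at 1.27 to 1.69 in the CH, -1.14 to -0.79 in the RPE and -4.99 to -4.41 in the PR, were called at 6 of 6 genes in every comparison. Smooth muscle and pericyte markers were at 1.00 to 1.71, 0.21 to 0.49 and -2.50 to -2.46, with 2 of 6 called higher in CH than in RPE. Platelet markers were at -0.63 to 0.08, -0.33 to 0.01 and -1.77 to -1.63, and mast cell markers at -0.16 to 0.47, -0.65 to -0.25 and -1.84 to -1.55, with 0 called between RPE and CH in either list. Pigment cell markers were at 0.48 to 0.76, -0.70 to -0.15 and -3.54 to -3.23 and were called higher in CH than in RPE at 3 of 5 genes, red blood cell markers and Muller glia markers at 0. Cy5 was saturated on all 3 CH arrays for Dcn of the fibroblast list and for Tyrp1 and Dct of the pigment cell list. For Dct it was saturated on all 3 RPE arrays too. Of the platelet markers 3 of 5 were not well above background on any PR array. The part of these cell types in the values of the 9 enzymes was not tested.

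The list of 46 other genes of the pathway, all of them with a probe, was called higher in CH than in RPE for 4 genes and higher in the RPE for 0, where 1.55% and 0.185% of all probes were. Against the PR, 20 were higher in the RPE and 22 in the CH, where 10.3% and 12.0% of all probes were, while 0 and 1 were higher in the PR, where 5.17% and 6.33% of all probes were. The median log2 difference over the list was -0.25 for RPE against CH, 0.80 for RPE against PR and 1.23 for CH against PR, beside 0.04, -0.01 and -0.05 over all probes.

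Upstream of the cyclooxygenases, 2 of 10 phospholipases A2 were called higher in CH than in RPE, 4 higher in RPE than in PR and 3 higher in CH than in PR. Of all probes, 1.55%, 10.3% and 12.0% were called in these directions. Pla2g4a, the cytosolic phospholipase that frees arachidonic acid, had mean log2 ratios of 0.82 in the CH, -1.07 in the RPE and -4.24 in the PR. It was lower in RPE than in CH (log2 difference -1.89, adjusted p-value = 1.41e-04, limma), with a difference of -1.81 on slide 1, and it was higher in CH than in PR by 5.06 (adjusted p-value = 8.50e-09, limma). Pla2g2e, a secreted phospholipase read here at the brighter of its 2 probes only, was lower in RPE than in CH (log2 difference -1.48, adjusted p-value = 1.80e-04, limma). The difference was -1.57 on slide 1, and it was not called with the Cy5 channel alone (-1.55, adjusted p-value = 0.0164, limma) or with the series table (-1.50, adjusted p-value = 0.0212, limma), where its size was about the same.

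Among the other synthases and reductases 4 of 9 were called higher in RPE than in PR and 4 of 9 higher in CH than in PR, and 0 between RPE and CH. Of all probes, 10.3% and 12.0% were called higher than in the PR. Between RPE and CH, 1.55% were called higher in the CH and 0.185% higher in the RPE. Hpgds, the haematopoietic prostaglandin D synthase, had means of -0.36 in the CH, -1.50 in the RPE and -2.06 in the PR and was called for CH against PR (1.70, adjusted p-value = 0.00476, limma). For RPE against PR it gave 0.56 (adjusted p-value = 0.287, limma). Ptgr1, which reduces the product of Hpgd further, was higher than in the PR by 1.41 in the RPE (adjusted p-value = 4.37e-06, limma) and 2.55 in the CH (adjusted p-value = 6.07e-08, limma).

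All 3 transporters were called higher in both tissues than in the PR, where 10.3% of all probes were for the RPE and 12.0% for the CH. Slco2a1, the prostaglandin transporter that takes prostaglandins into cells, had means of 1.50 in the CH, 0.65 in the RPE and -2.01 in the PR, and the RPE exceeded the PR by 2.66 (adjusted p-value = 2.61e-06, limma). Slco3a1 exceeded the PR by 3.31 in the RPE (adjusted p-value = 4.83e-07, limma) and 4.50 in the CH (adjusted p-value = 4.81e-08, limma). These values are from the brighter of its 2 probes, and the other was not compared. Abcc4, an exporter, had means of 0.58 in the RPE and -4.48 in the PR (5.07, adjusted p-value = 2.78e-08, limma).

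**Figure D5:**
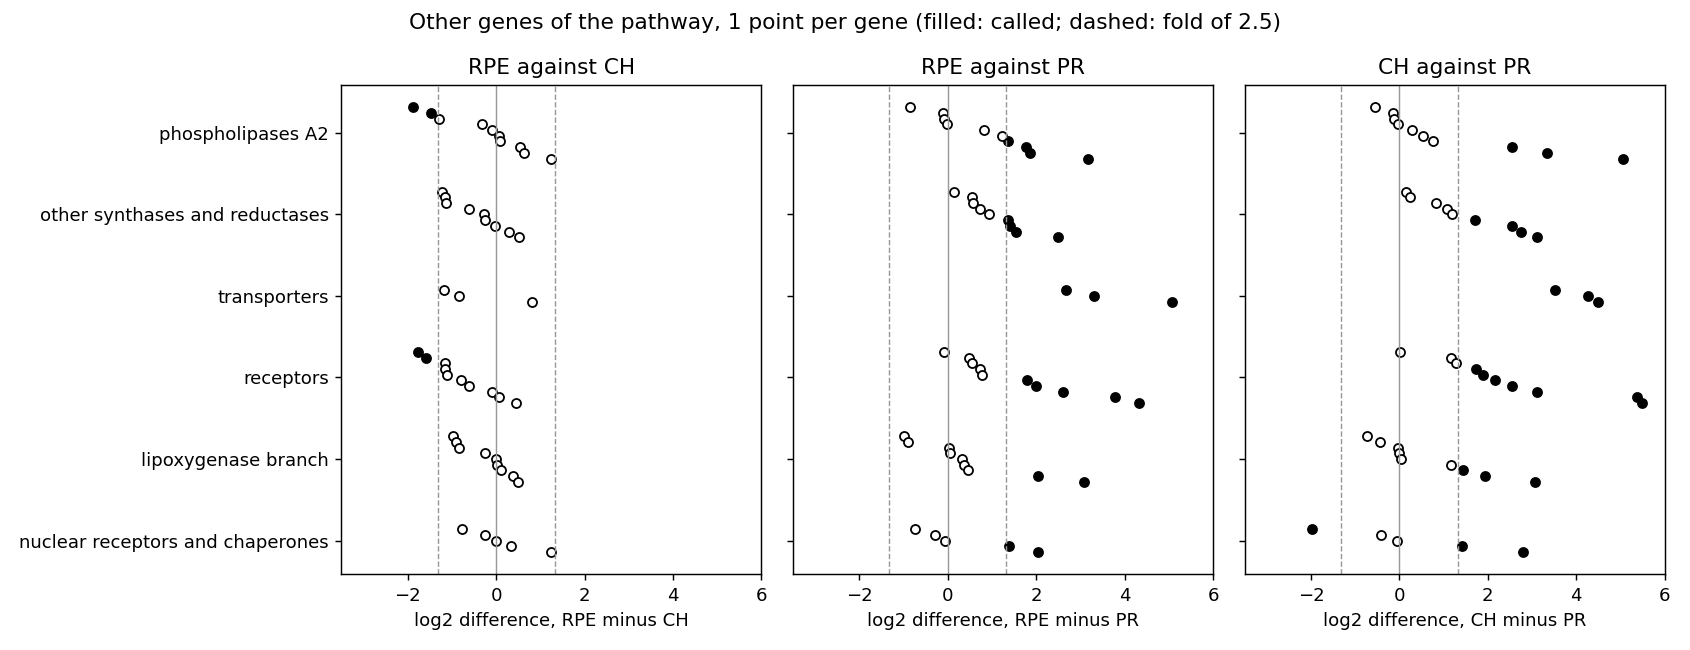
log2 difference at the reported probe of 46 other genes of the pathway, 1 point per gene in 6 groups, for RPE against CH, RPE against PR and CH against PR, with filled points for called genes. All 3 transporters are filled to the right in the comparisons with the PR, and the 4 filled points for RPE against CH, which belong to 2 phospholipases and 2 receptors, lie to the left.

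Of the 10 genes on the receptor list, 7 were not well above background on any PR array. On this list 2 were called higher in CH than in RPE, 5 higher in RPE than in PR and 7 higher in CH than in PR. Of all probes, 1.55%, 10.3% and 12.0% were called in these directions. The counts against the PR include Ptgfrn, which is named after the prostaglandin F receptor but is not itself a prostaglandin receptor. Ptgir, the prostacyclin receptor, had means of 2.20 in the CH and 1.05 in the RPE, and its signal was at least 26.2-fold higher in CH than in PR (adjusted p-value = 9.84e-09, limma) and at least 11.6-fold higher in RPE than in PR (adjusted p-value = 5.53e-08, limma). Ptger2, a receptor of prostaglandin E, was at least 29.0-fold higher in CH than in PR (adjusted p-value = 1.29e-08, limma) and at least 9.99-fold higher in the RPE (adjusted p-value = 1.55e-07, limma). It was lower in RPE than in CH (log2 difference -1.58, adjusted p-value = 5.46e-04, limma). Ptgdr, a receptor of prostaglandin D, was lower in RPE than in CH (log2 difference -1.77, adjusted p-value = 2.01e-04, limma) and well above background on 1 of 3 RPE arrays. On slide 1 alone the differences were -1.69 for Ptger2 and -1.73 for Ptgdr. Tbxa2r, the thromboxane receptor, had means of 1.52 in the CH, 1.96 in the RPE and -0.63 in the PR and was called against the PR only, at 2.60 for the RPE (adjusted p-value = 2.49e-07, limma). Ptgfr, the receptor of prostaglandin F, was well above background in the CH alone, where it was at least 1.80-fold higher than in the RPE (adjusted p-value = 0.00306, limma) and at least 1.65-fold higher than in the PR (adjusted p-value = 2.57e-05, limma), short of the threshold on the ratios.

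In the lipoxygenase branch, which turns arachidonic acid into leukotrienes and other products, 0 of 9 genes were called between RPE and CH, 2 were higher in RPE than in PR and 3 higher in CH than in PR. Against 10.3% and 12.0% of all probes, these few genes are not read as standing apart. Ltc4s, the leukotriene C4 synthase, exceeded the PR by 3.08 in the RPE (adjusted p-value = 5.21e-07, limma) and 3.07 in the CH (adjusted p-value = 4.14e-07, limma). Among nuclear receptors and chaperones, Hsp90aa1, to which Ptges3 binds as a cochaperone, was the single gene of the list called higher in the PR, with -1.97 for CH against PR (adjusted p-value = 7.98e-05, limma). With the Cy5 channel alone it was -0.62 and not called. Hsp90ab1, the other cytosolic Hsp90, was called the other way, at 1.40 for RPE against PR (adjusted p-value = 1.50e-05, limma) and 1.41 for CH against PR (adjusted p-value = 1.17e-05, limma). Pparg, a nuclear receptor that prostaglandin J products can activate, was also higher than in the PR, by 2.04 in the RPE (adjusted p-value = 1.30e-05, limma) and 2.80 in the CH (adjusted p-value = 1.10e-06, limma).

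The genes whose pattern was most like that of each called enzyme were found by the root mean square difference of the log2 ratio over the 9 arrays, after each probe was centred on its own mean, among 21789 named probes well above background in at least 1 tissue. For Ptgs1 they included Abracl and Ifi47 (both 0.24), and for Ptgs2 they were H2-Ab1, Neat1 and Cysltr1 (0.26 to 0.28). For Ptgds they were Slco1a5, Slc4a5 and Gja1 (0.11 to 0.13), and for probe 1 of Ptges they were 9330199G10Rik, Stard7 and Negr1 (0.08 to 0.10). For Ptgis they were Cavin2, Slc12a4 and Pcdh18 (0.14 to 0.15), for Tbxas1 they were Akap12, Axl and Irak3 (0.08 to 0.09), and for Hpgd they were Brinp1, Soga1 and Gm5796 (0.12 to 0.15). These distances describe arrays that share slides and the reference, and nothing was tested on them. The matches of Ptgds follow ratios with saturated Cy5 on all CH and RPE arrays. Those of Ptgs2 include PR arrays where it was not well above background.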

How the data were processed

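RNA of 3 CH, 3 RPE and 3 PR samples was measured on 9 arrays. The authors deposited the Agilent Feature Extraction 9.5.3.1 output, whose mean and background signals are intensity values as scanned, and a series table of log2 values of the Cy5 channel whose normalization is not given in the sources used here. The submitters' notes also name R 2.14.0 and limma. The intensities were corrected with normexp (offset 50) and normalized by loess within arrays. Controls and outlier-marked spots were dropped, and repeated spots averaged per probe. In R 4.3.3, limma 3.58.1 fitted a mean per tissue, with B-H adjustment over 39429 probes, and the fit was tested on simulated data. Bounds and the Cy5 folds of Ptgds use Cy5 after loess and Aquantile normalization and are open to dye bias. Python 3.11.15 served for tables and figures (pandas 2.3.3, numpy 2.4.6, scipy 1.17.1, matplotlib 3.10.9). Probe positions are those of the files (mm9). Gene symbols came from a RefSeq table (GRCm38.p6, 49997 genes), which matched 26055 probes by accession.

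All probes of the 9 genes were reported. From the pathway list, at most the 4 called genes with the largest difference in each direction of each comparison were named, with defining synthesis, transport and receptor genes; Slco2a1, Ptgr1 and Ltc4s were named for their place in the pathway. For each called member the 3 genes with the most similar pattern were named, of which 1 is not reported here. The members and all gene lists were chosen with earlier results of these data known. The methods name 3 eyes per tissue but do not tie eyes to mice, so p-values measure the spread between these samples, which may be technical. Alternatives covered background, normalization, the channels, slide and replicate number as blocks, the arrays fitted, dim and marked spots, thresholds, the series table and each array left out.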

Additional observations from a re-analysis of the deposited data

How the results depend on the processing

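For RPE against PR and CH against PR, the 8 called probes of the 9 genes became 7 to 11 under the alternatives run, and each gene kept its direction at its reported probe except Ptges2 and Ptges3, which were not called. For RPE against PR the difference of Ptges2, 0.04, turned to -0.19 with the Feature Extraction log ratio, -0.29 with median centring, -0.24 with the Cy5 channel alone, -0.16 with the series table and -0.16 with slide as a block, and that of Ptges3, 0.08, to -0.044, -0.069 and -0.076 with the Feature Extraction ratio, median centring and slide as a block. Between the single RPE and PR arrays of slide 2 the Ptges3 difference was -0.18, with no test. Leaving out 1 array gave -0.011 to 0.064 for Ptges2 and -0.14 to 0.24 for Ptges3, with the lowest value in both without PR 1. For RPE against CH the difference of Ptgis, 0.02, turned to -0.019 (Feature Extraction), -0.26 (median centring), -0.003 (Cy5 alone), -0.002 (series table), -0.12 (slide 1) and -0.10 without RPE 2 (leaving out 1 array gave -0.10 to 0.084), and that of Ptges, 0.27, to -0.044 with median centring. None of these was called, and the cause was not tested.

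For RPE against CH the count of 1 called probe, that of Ptgs2, became 0 with the Feature Extraction ratio, the Cy5 channel alone, the series table, slide as a block, the fit of only these tissues and slide 1 alone, where 2 arrays against 2 gave 0 calls over all probes, so that a call lost there says nothing of the gene. It became 3 with median centring or a fold threshold of 2, and 5 with the adjusted p-value alone. Leaving out 1 array gave 0 to 3 probes, and 3 without CH 3, when Tbxas1 (-1.39) and Hpgd (-1.36) were called as well. Slide 2 alone has 1 array per tissue and gives no count.

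Whether the replicate numbers pair the samples is not known. The deviations of arrays with the same number correlated from -0.08 to 0.29. For arrays of different tissues and different numbers the range was -0.31 to 0.25. The arrays numbered 2 also shared slide 2, so number and slide cannot be told apart there. With the replicate number as a block the count for RPE against CH was 0 (Ptgs2 adjusted p-value = 0.0165, limma), and the counts against the PR stayed at 8.

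Of all probes called between RPE and PR, 66.6% were higher in the RPE, but 54.5% with the Feature Extraction ratio and 53.0% with Cy5 alone. For CH against PR 65.6% were higher in the CH, and 53.5% and 53.6% in those settings. Saturation limits Ptgds and several marker genes, and signals near background limit Ptgs2 and most receptors in the PR.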
